A study of Homo sapiens with 18 samples.

Results

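Enzymes that build fatty acids from citrate, lengthen them and put in double bonds were followed in HMC3 cells given oxidized low-density lipoprotein (oxLDL). With LPIN1, a phosphatidate phosphatase, they form a group of 10 genes. The genes were taken by symbol, and all 10 were present among the 13992 symbols of the deposited table: ACLY, ACACA, FASN, ELOVL6, ELOVL1, ELOVL5, SCD, FADS1, FADS2 and LPIN1. HMC3 is an immortalized line from human microglia, labelled wild type, and oxLDL is a lipoprotein particle that cells take up through scavenger receptors. The lipoprotein was left out (0 µg/ml) or given for 24 h at 1 µg/ml, 2.5 µg/ml, 10 µg/ml, 50 µg/ml or the top dose of 100 µg/ml, and poly-A RNA was sequenced in 3 libraries per dose, 18 in all. The libraries without oxLDL are the comparison group, and all libraries carry the same batch value. Whether libraries of 1 dose are separate cultures is not stated in the labels, so the p-values cover the spread among these libraries, and that spread may be technical.

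ATP citrate lyase (ACLY) splits citrate into acetyl-CoA, acetyl-CoA carboxylase (ACACA) turns it into malonyl-CoA, and fatty acid synthase (FASN) joins these units into palmitate. Elongases of the ELOVL family then lengthen the chain, and desaturases set double bonds: SCD makes oleate and palmitoleate from saturated chains, while FADS2 and FADS1 act in turn on essential polyunsaturated fatty acids. Many of these genes are known targets of SREBP1, a transcription factor held back by sterols and by polyunsaturated fatty acids, and SCD and SREBF1 are also targets of the oxysterol receptors LXR. In microglia and macrophages this pathway feeds membranes, lipid droplets and lipid mediators.

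The sequences before the transcript starts of 4 members are shown because they are the pair that fell most (SCD and FADS2), the neighbour of FADS2 with a smaller fold (FADS1), and the elongase that rose (ELOVL1). Each is the 250 bases before a RefSeq start (GRCh38.p14), 5′ to 3′ on the strand of the gene. Capitals mark CCAAT (the NF-Y motif, also read as ATTGG) and GGGCGG (the GC box of Sp1, also read as CCGCCC).
SCD (chr10:100346983-100347232, plus strand): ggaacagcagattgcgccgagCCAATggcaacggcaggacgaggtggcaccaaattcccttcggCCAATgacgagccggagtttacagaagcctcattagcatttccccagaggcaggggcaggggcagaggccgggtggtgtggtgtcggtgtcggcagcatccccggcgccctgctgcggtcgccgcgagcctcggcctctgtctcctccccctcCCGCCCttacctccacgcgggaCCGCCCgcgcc
FADS2 (chr11:61815953-61816202, plus strand): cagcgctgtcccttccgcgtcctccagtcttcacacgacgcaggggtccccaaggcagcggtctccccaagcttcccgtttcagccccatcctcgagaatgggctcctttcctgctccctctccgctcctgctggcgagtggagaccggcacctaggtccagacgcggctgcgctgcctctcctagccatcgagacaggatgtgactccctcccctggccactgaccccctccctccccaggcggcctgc
FADS1 (chr11:61817004-61817253, minus strand): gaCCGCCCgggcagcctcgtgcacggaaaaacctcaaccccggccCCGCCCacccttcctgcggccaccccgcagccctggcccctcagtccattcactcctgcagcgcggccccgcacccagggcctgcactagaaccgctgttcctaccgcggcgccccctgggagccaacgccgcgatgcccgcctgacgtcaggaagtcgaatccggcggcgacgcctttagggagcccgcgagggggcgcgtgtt
ELOVL1 (chr1:43368012-43368261, minus strand): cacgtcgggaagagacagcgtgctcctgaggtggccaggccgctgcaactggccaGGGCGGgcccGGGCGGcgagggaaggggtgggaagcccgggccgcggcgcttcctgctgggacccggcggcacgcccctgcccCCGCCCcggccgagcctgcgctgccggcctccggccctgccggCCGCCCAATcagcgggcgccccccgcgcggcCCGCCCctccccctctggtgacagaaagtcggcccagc
RefSeq sequence was found for 9 members with 15 starts, and not for FASN. The windows were searched on both strands for 4 motifs, and a match is a description of the letters. The sterol regulatory element written as TCACNCCAC was found in 0.883% of 35116 promoter windows of this length, and in none of the 15 windows of the members. The absence of so rare a string from 15 windows tells little, and other forms of the element were not searched. CCAAT was in 32.0% of all windows; SCD had 2 matches, at -229 to -225 and -186 to -182 from the start, and ELOVL1 had 1, which overlaps a GC box. No CCAAT was in the windows of FADS1, FADS2, ELOVL6 or LPIN1. The GC box was in 42.6% of all windows, with 5 matches before ELOVL1, 2 before SCD, 2 before FADS1 and 0 in the FADS2 window shown. The E-box CACGTG, in 6.35% of all windows, was found before ELOVL5 alone among the members.

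Values are FPKM (fragments scaled by transcript length and by the library's total), so levels can be compared between genes. Whole reads recovered from the steps of the FPKM values came to 13902719 to 37338597 per library, and the fewest reads of a tested member in a library were 144, for ELOVL6. Of 22 microglia and macrophage markers, 3 were among the listed symbols, CD68 and CD14 among them; AIF1, TMEM119, P2RY12, CX3CR1, PTPRC, CSF1R and SPI1 were not. Of 12 pericyte and fibroblast markers 8 were listed, led by COL1A1 at a mean of 457.5 FPKM. In total the listed pericyte and fibroblast markers went from 715.4 to 781.5 FPKM at 0 µg/ml down to 525.7 to 593.5 at 100 µg/ml. The 3 listed of 7 astrocyte markers summed to 38.6 to 41.4 and 34.7 to 39.0, the 4 listed of 7 neuron markers to 32.6 to 33.8 and 27.4 to 29.8, and the 1 listed endothelial marker of 6, VWF, stayed under 0.096 in every library. The part of these shifts in the results below was not tested. Of 13 mitochondrially encoded transcripts looked up by their MT- symbols, 0 were listed, so RNA quality could not be judged from them.

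A pair of libraries stood apart in these genes. Replicate 3 at 2.5 µg/ml had the highest value of all 18 libraries for SCD, FASN, FADS1, FADS2, LPIN1 and ACLY and the lowest for ELOVL1, and its summed FPKM was the lowest of all (386396). Replicate 3 at 10 µg/ml was the lowest of its dose for SCD, FADS1, FADS2, FASN, LPIN1 and ACLY. Leaving out both is an alternative chosen after seeing the data. Without both, 5 of the 9 tested members were called lower at 100 µg/ml and 1 higher, against 4 and 1 with them. Of the other genes of the pathway described below, 9 were called lower and 8 higher without both, against 7 and 7 with them. The share of all genes called without these libraries is not given here. Other results that turn on these libraries are given both ways.

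**Figure D1:**
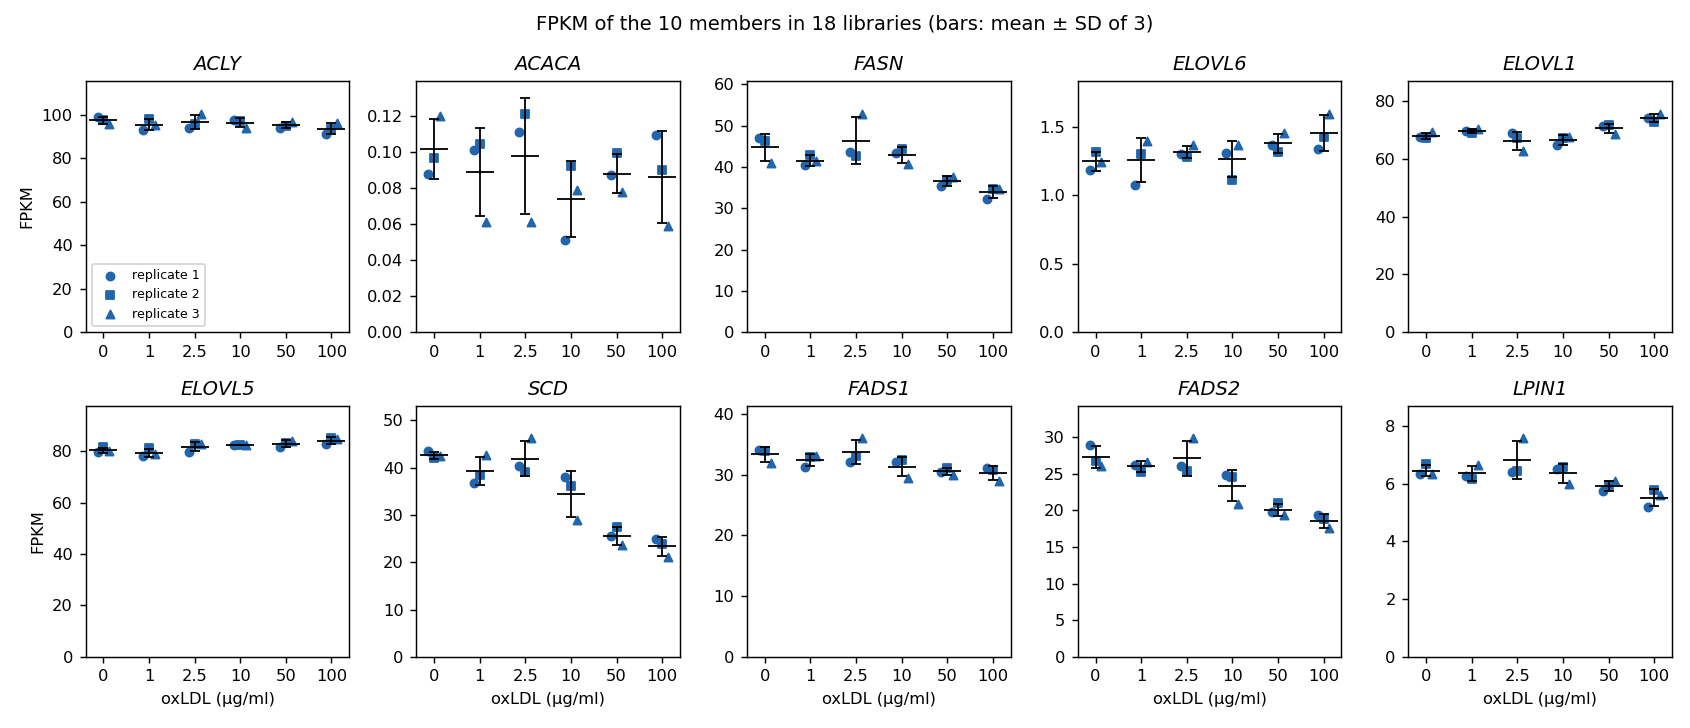
FPKM (y axis, from 0, own scale per gene) of each of the 10 members against oxLDL dose in µg/ml (x axis, evenly spaced); symbols are the 3 replicates, black bars the mean ± SD. SCD goes from 42.0 to 43.4 FPKM at 0 µg/ml down to 21.2 to 24.9 at 100 µg/ml, ACLY and the ELOVL genes lie nearly flat, and ACACA is under 0.13 in every library.

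Without oxLDL the members covered a wide range of levels. ACLY was the highest with 97.5 ± 1.6 FPKM (SD, n = 3, as for each mean here), followed by ELOVL5 with 80.4 ± 0.96 and ELOVL1 with 67.9 ± 1.1. FASN with 44.8 ± 3.3 and SCD with 42.6 ± 0.74 had overlapping libraries and could not be ordered, and were above FADS1 with 33.4 ± 1.2 and FADS2 with 27.3 ± 1.5. LPIN1 was at 6.44 ± 0.20 and ELOVL6 at 1.25 ± 0.067. ACACA was listed lowest, with 0.101 ± 0.017 FPKM, a value that may not be its level in the cells, as described below. Apart from FASN and SCD, no neighbours in this order shared values at 0 µg/ml.

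In the comparison of 100 with 0 µg/ml, SCD, FADS2, FASN and LPIN1 fell and ELOVL1 rose among the 9 members tested. These 4 calls lower stand beside 7.51% of all 12127 genes tested called lower, and the 1 call higher beside 7.94% called higher (limma on log2(FPKM + 0.5), adjusted p under 0.05 by Benjamini-Hochberg). The median log2 fold change of the 9 members was -0.14, against -0.004 over all tested genes, and each fold given below is a log2 fold change. In 5 members all libraries at 100 µg/ml were below all without oxLDL (16.9% of all genes), in 3 they were all above (16.5% of all genes), and ACLY overlapped. In bulk RNA, fewer cells that express a gene and less of its RNA per cell cannot be told apart.

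**Figure D2:**
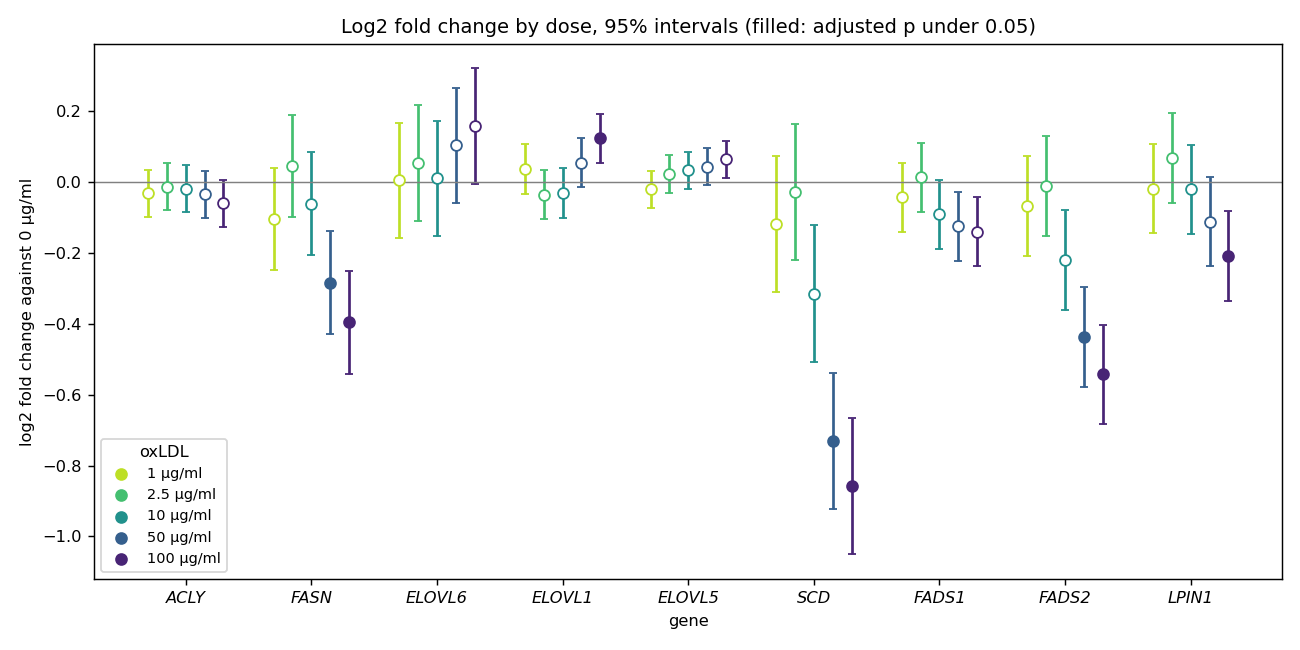
Log2 fold change against 0 µg/ml (y axis) of the 9 tested members (x axis) at the 5 doses (colours), with the 95% interval of limma; filled points have an adjusted p under 0.05. Filled points are at 50 and 100 µg/ml only, for SCD, FADS2 and FASN at both doses and for ELOVL1 and LPIN1 at 100 µg/ml.

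At the head of the pathway ACLY (chromosome 17, 41866917 to 41930545) varied little. Its FPKM was 99.0, 97.6 and 95.8 without oxLDL and 91.0, 93.6 and 96.0 with 100 µg/ml, and the groups overlap. The log2 fold change was -0.059 (95% interval -0.12 to 0.007, limma adjusted p = 0.234). ACLY was not called at any dose, and over all 18 libraries it stayed between 91.0 and 100.4 FPKM.

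ACACA, the carboxylase that commits acetyl-CoA to fatty acids (chromosome 17, 37084992 to 37406836), was under the filter of FPKM of at least 0.5 in at least 3 libraries and was not tested. It had 0.051 to 0.12 FPKM and 10 to 41 reads per library, and whether it differed between doses cannot be said. The length behind its FPKM, recovered from the steps, was 12247 bases, or 94.2% of its exon bases in GENCODE 29. Its surroundings were thinly listed: of 34 other protein-coding genes of RefSeq within 1000000 bases on either side, 8 (23.5%) were among the listed symbols, against 58.6% of all protein-coding genes. The neighbours on its flanks included TADA2A at a mean of 0.433 FPKM and DDX52 at 3.64, while AATF and SYNRG were not among the listed symbols. The region also holds the TBC1D3 family of near-identical copies. These copies are among the 34, are mostly not listed and lower the share of listed neighbours. Most of the other neighbours were not listed either. How reads that map to several places were treated is not given in the sources used here. Reads of ACACA may be missing from its value, and neither this nor a cause of it was tested.

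FASN (chromosome 17, 82078338 to 82098236) fell at both high doses. Its FPKM was 47.1, 46.2 and 41.0 without oxLDL, 35.4, 36.9 and 37.7 at 50 µg/ml, and 32.2, 34.7 and 34.7 with 100 µg/ml. All libraries at 50 and 100 µg/ml lie below all without oxLDL, and those at 100 below those at 50. The log2 fold change was -0.28 (SE 0.068, adjusted p = 0.0184) at 50 µg/ml and -0.40 (SE 0.068, adjusted p = 0.000804) at 100 µg/ml by limma. The call at 50 µg/ml was lost without replicate 1 or 2 of the cells given no oxLDL (adjusted p = 0.0895 and 0.067) and without replicate 1 at 50 µg/ml (0.0654). At the lower doses FASN stayed between 40.4 and 52.9 FPKM, with the top value from replicate 3 at 2.5 µg/ml.

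Of the elongases, ELOVL1 passed the test and ELOVL6 and ELOVL5 did not. ELOVL6, which lengthens palmitate to stearate (chromosome 4, 110045846 to 110199202), had 1.19, 1.32 and 1.24 FPKM without oxLDL and 1.34, 1.43 and 1.60 at 100 µg/ml. The groups do not overlap, but the fold of 0.16 (95% interval -0.005 to 0.32) was not called (limma adjusted p = 0.191). ELOVL5, which lengthens polyunsaturated chains between the steps of FADS2 and FADS1 (chromosome 6, 53267404 to 53348950), had 79.6, 81.5 and 80.2 FPKM without oxLDL and 82.8, 85.0 and 84.7 at 100 µg/ml. Again the groups do not overlap, and the fold of 0.065 (95% interval 0.012 to 0.12) was not called (adjusted p = 0.0952).

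ELOVL1, which makes saturated and monounsaturated chains of very great length (chromosome 1, 43363401 to 43368011), was the member that rose. Its FPKM was 67.4, 67.2 and 69.1 without oxLDL, 71.5, 71.5 and 68.7 at 50 µg/ml, and 74.0, 72.6 and 75.6 with 100 µg/ml. The 3 libraries at 100 µg/ml are the highest of all 18, and those at 50 µg/ml overlap the ones without oxLDL. The fold at 100 µg/ml was 0.12 (SE 0.033, adjusted p = 0.0157 by limma). This call was lost with median centring (adjusted p = 0.0804), with TMM scaling (0.138), and without replicate 1 or 2 of the cells given no oxLDL (0.0569 and 0.0567) or replicate 3 at 100 µg/ml (0.0736).

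SCD, the stearoyl-CoA desaturase (chromosome 10, 100347233 to 100364826), had the largest fold of the members at the high doses. Its FPKM was 43.4, 42.0 and 42.4 without oxLDL, 36.8, 38.4 and 42.7 with a dose of 1 µg/ml, and 40.4, 39.1 and 46.2 with 2.5 µg/ml. These 3 doses overlap, with folds of -0.12 and -0.027 at 1 and 2.5 µg/ml that were not called (limma adjusted p = 1.0 and 0.994). At 10 µg/ml SCD had 38.1, 36.2 and 28.9 FPKM. It had 25.5, 27.4 and 23.7 FPKM when the dose was 50 µg/ml, and 24.9, 23.9 and 21.2 FPKM when it was 100 µg/ml. All libraries from 10 µg/ml on lie below all without oxLDL, and all at 50 µg/ml below all at 10 µg/ml. The limma fold was -0.31 at 10 µg/ml (SE 0.091, unadjusted p = 0.00315, adjusted p = 0.464), -0.73 at 50 µg/ml (adjusted p = 0.000107) and -0.86 at 100 µg/ml (adjusted p = 7.48e-06). Without replicate 3 at 10 µg/ml, its lowest library, the fold of SCD at that dose was -0.20 (adjusted p = 0.521).

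FADS2, which sets the first double bond in the conversion of linoleic and alpha-linolenic acid (chromosome 11, 61816203 to 61867354), fell at the same doses as SCD. Its FPKM was 29.0, 26.8 and 26.1 without oxLDL, and 24.8, 24.5 and 20.9 at 10 µg/ml. With 50 µg/ml it was 19.8, 21.0 and 19.4 FPKM, and with 100 µg/ml it was 19.4, 18.8 and 17.6 FPKM. From 10 µg/ml on every library is below those without oxLDL, while 1 and 2.5 µg/ml overlap them (25.2 to 26.6 and 25.4 to 29.9 FPKM). The limma fold was -0.22 at 10 µg/ml (adjusted p = 0.483, not called), -0.44 at 50 µg/ml (SE 0.067, adjusted p = 0.000751) and -0.54 at 100 µg/ml (SE 0.067, adjusted p = 3.39e-05). Without replicate 3 at 10 µg/ml the fold of FADS2 at that dose was -0.14 (adjusted p = 0.524). In GENCODE 29 FADS2 shares 490 exon bases with FADS1 on the opposite strand and 49 with FEN1 on its own strand. How counting dealt with strand is not given in the sources used here, so reads in these stretches cannot be assigned to 1 gene with certainty.

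FADS1, which acts after FADS2 and ELOVL5 (chromosome 11, 61799627 to 61817003, minus strand), had a smaller fold and missed the threshold. Its FPKM was 34.1, 34.0 and 32.0 without oxLDL, 30.5, 31.2 and 30.0 at 50 µg/ml, and 31.1, 30.7 and 28.9 with 100 µg/ml. The groups at both high doses lie below the libraries without oxLDL. The fold at 100 µg/ml was -0.14, with a 95% interval of -0.24 to -0.042 (limma adjusted p = 0.0504). It was called in 10 of 31 alternative settings (adjusted p from 0.0134 to 0.208 over all of them), among them limma-voom on the recovered reads (0.0277). The ratio of FADS2 to FADS1 FPKM in the same library was 0.848, 0.788 and 0.817 without oxLDL, and 0.773, 0.758 and 0.708 at 10 µg/ml. With 50 µg/ml the ratio was 0.648, 0.672 and 0.646, and with 100 µg/ml it was 0.623, 0.611 and 0.607. At 1 µg/ml the ratio was 0.839, 0.767 and 0.804, and at 2.5 µg/ml it was 0.813, 0.769 and 0.829. The ratio in every library from 10 µg/ml on is below those without oxLDL. The ratios at 10 µg/ml overlap those at 1 and at 2.5 µg/ml. The ratio was not tested.

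**Figure D3:**
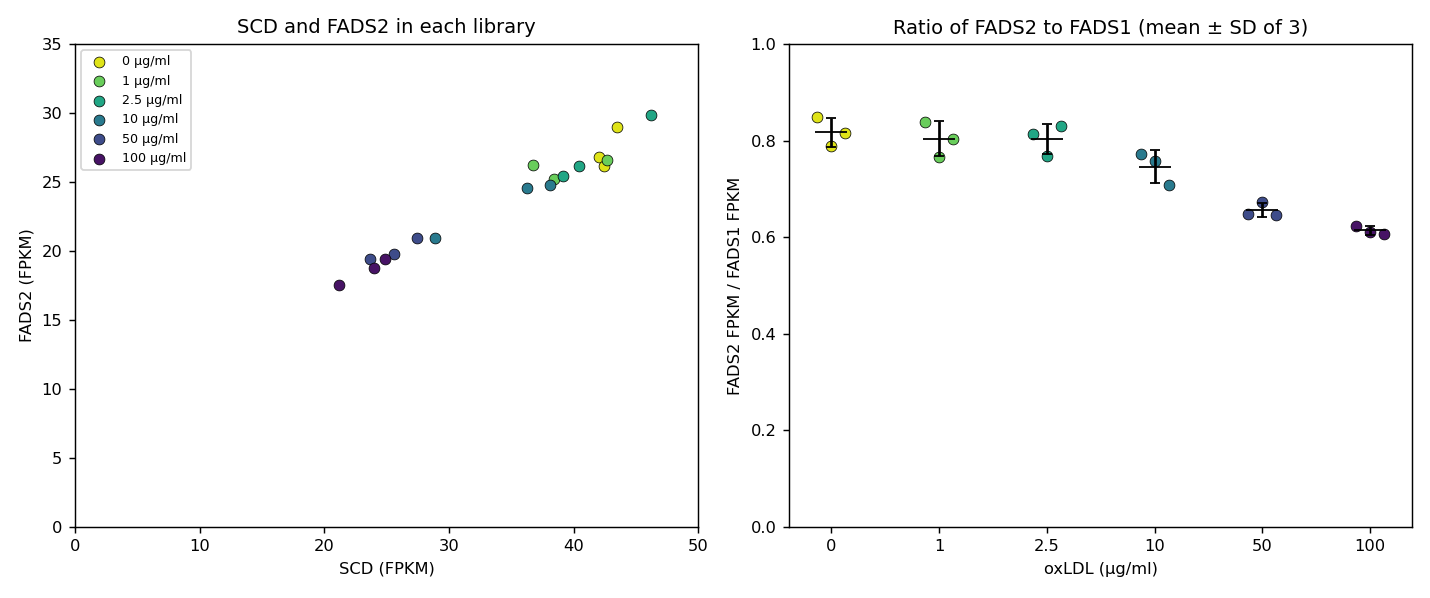
Left, FADS2 FPKM (y axis) against SCD FPKM (x axis) in each of the 18 libraries, coloured by dose. Right, the ratio of FADS2 to FADS1 FPKM (y axis) by oxLDL dose in µg/ml (x axis), with mean ± SD of 3 libraries. The ratio is 0.788 to 0.848 at 0 µg/ml and 0.607 to 0.623 at 100 µg/ml.

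LPIN1, a phosphatidate phosphatase that makes diacylglycerol for triglycerides and phospholipids (chromosome 2, 11677544 to 11827409), fell at the top dose. Its FPKM was 6.34, 6.67 and 6.33 without oxLDL, 5.74, 5.96 and 6.08 at 50 µg/ml, and 5.18, 5.78 and 5.59 with 100 µg/ml. Both high doses lie below the libraries without oxLDL. The limma fold of -0.11 at 50 µg/ml was not called (adjusted p = 0.296), and that of -0.21 at 100 µg/ml was (SE 0.060, adjusted p = 0.0253). The call was lost without replicate 1 or 2 of the cells given no oxLDL (adjusted p = 0.0543 and 0.0932) and without replicate 1 or 3 at 100 µg/ml (0.11 and 0.0574).

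By dose, the members were called from 50 µg/ml on. At 50 µg/ml 3 of 9 fell (SCD, FADS2 and FASN), where 3.69% of all genes were called lower. In limma and in limma-voom 0 rose (3.78% of all genes did in limma). An unadjusted limma p under 0.05 was found for 4 members, all of them lower, and for 2656 of all 12127 genes in either direction. The libraries with 50 µg/ml were all below those without oxLDL in 5 members (13.3% of all genes) and all above in ELOVL5 (14.9% of all genes). At 10 µg/ml limma called 0 members, where 0.033% of all genes were called higher and 0.00825% lower. At that dose 2 members, SCD and FADS2, had an unadjusted p under 0.05, as did 1185 of all 12127 genes in either direction. Groups that do not overlap were found there for SCD and FADS2, lower (6.84% of all genes), and for ELOVL5, higher (10.1% of all genes). At 2.5 and at 1 µg/ml limma called 0 members and 0% of all genes. An unadjusted p under 0.05 was found for 0 members at either dose, against 531 and 365 of all 12127 genes. Limma-voom also called 0 members at each of the 3 doses up to 10 µg/ml. The comparisons with 0 µg/ml share the same 3 libraries and are not independent.

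In the step from 10 to 50 µg/ml SCD was called lower (fold -0.42, SE 0.091, limma adjusted p = 0.0224), where 1.22% of all genes were called lower and 1.39% higher. The libraries of this step did not overlap for SCD and FASN, lower (11.7% of all genes), and for ELOVL1, higher (9.53% of all genes). The call of SCD was lost without replicate 1 or 2 of the lower dose (adjusted p = 0.122 and 0.123), without replicate 1 or 3 of the higher dose (0.0696 and 0.0932), and with these 2 doses alone in the fit (0.116). FADS2 (fold -0.22, adjusted p = 0.0971) and FASN (fold -0.22, adjusted p = 0.0964) were not called in limma with all libraries. Without replicate 3 at 10 µg/ml the fold of FADS2 was -0.29 (adjusted p = 0.012) and that of FASN -0.26 (adjusted p = 0.0546). FASN was called without replicate 3 at 2.5 µg/ml (adjusted p = 0.0236), without both libraries that stood apart (0.00857), where 3 members were called lower against 1 with them, and in limma-voom on the recovered reads (0.0255). From 50 to 100 µg/ml 0 members were called in limma and in limma-voom, where limma called 0.223% of all genes higher and 0.0577% lower. ELOVL1 had an unadjusted limma p of 0.0495, and 1010 of all 12127 genes had one under 0.05. In that step FASN was lower in every library (8.33% of all genes) and ELOVL1 higher (6.74% of all genes).

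The slope over log2(dose + 1), which uses all 18 libraries, called 7 of the 9 members, and the limma test for any difference among the 6 doses called 5, SCD, FADS2, FASN, ELOVL1 and LPIN1 (15.4% of all genes). SCD, FADS2, FASN, LPIN1 and FADS1 sloped down (12.6% of all genes did), and ELOVL5 and ELOVL1 sloped up (13% of all genes did). Per unit of log2(dose + 1) SCD fell by 0.14 (SE 0.012, limma adjusted p = 2.06e-07), FADS2 by 0.085 (SE 0.0084, adjusted p = 6.11e-07) and FASN by 0.057 (SE 0.010, adjusted p = 0.000262). LPIN1 had a slope of -0.031 (adjusted p = 0.00545) and FADS1 of -0.022 (adjusted p = 0.00451). The slopes of ELOVL1 (0.015, adjusted p = 0.0332) and ELOVL5 (0.011, adjusted p = 0.0121) were small, and neither was called with TMM scaling (adjusted p = 0.24 and 0.0832). ELOVL6 (0.021, adjusted p = 0.0751) and ACLY (-0.006, adjusted p = 0.212) were not called. Without the libraries at 100 µg/ml the slopes of SCD, FADS2 and FASN were still called, and those of LPIN1, FADS1, ELOVL1 and ELOVL5 were not (adjusted p = 0.208, 0.0546, 0.612 and 0.137).

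Across the 18 libraries the gene whose log2(FPKM + 0.5) followed SCD most closely of all tested genes was FADS2 (Pearson r = 0.99, a description over libraries that share doses). Among the next in order were the cell cycle inhibitor CDKN2B (r = 0.98), the sterol sensor INSIG1 (0.97) and EHD1, an endosomal recycling protein (0.97). Their folds at 100 µg/ml were -0.63 for CDKN2B, -0.72 for INSIG1 and -0.34 for EHD1. FADS1, with r = 0.86, ranked 302 of the 12127 tested genes, with SCD itself at 1 and FADS2 at 2. FASN (r = 0.88) ranked 253 and LPIN1 (0.82) ranked 442, while ACLY had an r of 0.51. ELOVL6, ELOVL5 and ELOVL1 went the other way from SCD (-0.57, -0.68 and -0.72). SCD and FADS2 also varied together among the libraries of a dose: after the dose means were taken off, r was 0.89, and it was 0.84 for SCD with FADS1 and 0.41 for SCD with FASN. In the same residuals FASN went with ACLY (0.86) and LPIN1 (0.81), and ELOVL1 went the other way from FASN (-0.74). Several of these values rest on the outlying libraries at 2.5 and 10 µg/ml. Without them, over 16 libraries, the residual r of SCD was 0.73 with FADS2, 0.69 with FADS1 and -0.19 with FASN, and that of FASN was 0.75 with ACLY, 0.49 with LPIN1 and -0.36 with ELOVL1. The overall r of SCD with FADS2 was 0.99 without them too.

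Beyond the members, 61 other genes of the pathway and its control were listed by role, of which 53 were among the listed symbols and 49 were tested. At 100 µg/ml 7 of them fell and 7 rose, where 7.51% and 7.94% of all genes did, and their median fold was 0.025. At 50 µg/ml 5 fell and 5 rose, where 3.69% and 3.78% of all genes did. Members included, the median fold at 100 µg/ml was -0.074 for the supply of acetyl-CoA and malonyl-CoA, -0.13 for desaturation, 0.065 for elongation, 0.079 for acyl-CoA synthetases, 0.043 for phosphatidate and triglyceride synthesis and 0.025 for regulators, against -0.004 over all genes.

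**Figure D4:**
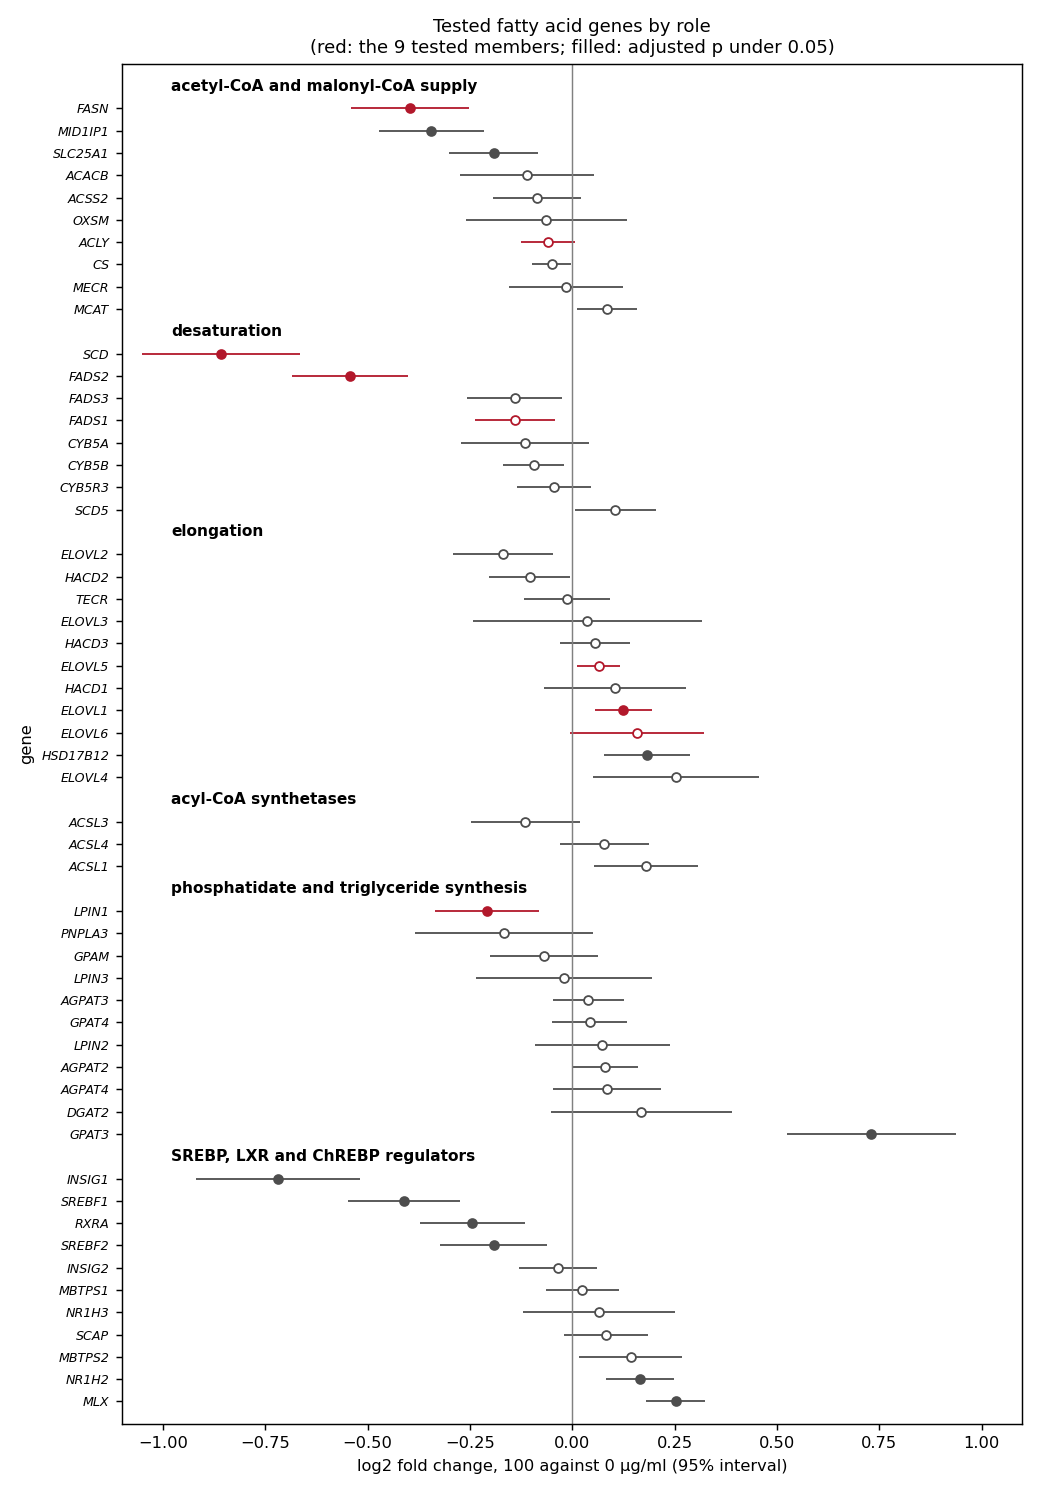
Log2 fold change at 100 against 0 µg/ml (x axis) with its 95% interval for the tested genes of 6 role lists (y axis); red are the 9 tested members, filled points have an adjusted p under 0.05. SCD is at -0.86 and FADS2 at -0.54, and GPAT3 stands highest at 0.73.

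In the supply of acetyl-CoA and malonyl-CoA, 8 non-members were tested, of which 2 fell and the others were not called. MID1IP1, which helps acetyl-CoA carboxylase to polymerize, went from 5.15 ± 0.12 to 3.96 FPKM (fold -0.34, limma adjusted p = 0.000972). SLC25A1, which carries citrate out of mitochondria, went from 76.4 ± 4.6 to 66.8 FPKM (fold -0.19, adjusted p = 0.0165), a call lost in 4 of 31 settings. ACSS2, which makes acetyl-CoA from acetate, was not called (fold -0.086, adjusted p = 0.3). Of 5 other desaturation genes the nearest to the threshold was CYB5B (fold -0.094, adjusted p = 0.0824), a cytochrome of the mitochondrial outer membrane, and SCD5, a further stearoyl-CoA desaturase, was not called either (fold 0.11, adjusted p = 0.148). Of 3 acyl-CoA synthetases tested the nearest was ACSL1 (fold 0.18, adjusted p = 0.0516).

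Of 8 other elongation genes 1 rose and the others were not called. HSD17B12, the reductase of the second step of each elongation cycle, went from 16.1 ± 0.57 to 18.3 FPKM (fold 0.18, limma adjusted p = 0.0189), a call lost in 3 of 31 settings. Of 10 other genes of phosphatidate and triglyceride synthesis, GPAT3, which adds the first acyl chain to glycerol phosphate, rose and the others were not called. GPAT3 had 0.498, 0.660 and 0.543 FPKM without oxLDL and 1.11, 1.41 and 1.30 at 100 µg/ml (fold 0.73, adjusted p = 7.75e-05), and the groups do not overlap. At this low level the fold of GPAT3 depended on the pseudocount: it was 1.04 with 0.1 and 0.53 with 1 in place of 0.5, and 1.19 with limma-voom on the recovered reads, and it was called in each.

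Among genes that supply NADPH, the reductant of fatty acid synthesis, calls were found in both directions. Malic enzyme ME1 had 1.84, 1.80 and 1.49 FPKM without oxLDL and 3.03, 2.93 and 2.48 at 100 µg/ml (fold 0.58, limma adjusted p = 5.63e-05), and the groups do not overlap. PGD, an enzyme of the pentose phosphate pathway, rose (fold 0.18, adjusted p = 0.00127), and the cytosolic isocitrate dehydrogenase IDH1 fell (fold -0.33, adjusted p = 0.000653). ME1 and PGD are also known as targets of NRF2, the factor of the antioxidant response. A role of NRF2 here was not tested.

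Among 11 tested regulators 4 fell and 2 rose. INSIG1, which holds the SREBP precursors in the endoplasmic reticulum and is itself an SREBP target, had 17.1, 16.6 and 18.4 FPKM without oxLDL and 11.3, 10.5 and 9.34 at 100 µg/ml (fold -0.72, limma adjusted p = 7.09e-05). SREBF1, the gene of SREBP1, had 10.6, 10.6 and 9.56 FPKM without oxLDL and 7.83, 7.88 and 7.07 at 100 µg/ml (fold -0.41, adjusted p = 0.000358). In both genes the groups do not overlap. SREBF2, the gene of the cholesterol-directed SREBP2, fell by 0.19 on the log2 scale (adjusted p = 0.0459), a call lost in 14 of 31 settings (at most 0.151). The LXR partner RXRA fell (fold -0.24, adjusted p = 0.0112, lost in 2 settings), while the LXR gene NR1H2 (fold 0.17, adjusted p = 0.00789) and MLX, the partner of the carbohydrate-responsive factor ChREBP (fold 0.25, adjusted p = 7.66e-05), rose. The other LXR gene, NR1H3, was not called (fold 0.066, adjusted p = 0.694).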

How the data were processed

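Poly-A RNA of 18 HMC3 libraries, 3 at each of 6 oxLDL doses, was sequenced as paired ends. The authors deposited FPKM per gene symbol, with 1 column per library. HISAT2 2.0.5, featureCounts, DESeq2 and build hg38 are named in the submitters' processing notes, without role or order; the annotation and the treatment of strand are not given in the sources used here. Whole reads were recovered from the FPKM steps within 0.05 reads for 13992 of 13992 genes (100%). They give the depth and an alternative fit, and intervals cover the spread between libraries.

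The 12127 genes that reached 0.5 FPKM in 3 or more libraries (1865 did not) were tested as log2(FPKM + 0.5), a scale that understates changes of low genes, with limma 3.58.1 (R 4.3.3), a mean for each dose (12 residual degrees of freedom) and a variance trend. Tests were two-sided, with Benjamini-Hochberg adjustment over all genes per comparison. The script was tested on simulated data.

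All members are named; of the other role lists, called genes are named at 100 µg/ml, with 6 regulators and suppliers fixed by name and the 5 genes nearest to SCD; a few of these, and of the markers, are not reported here. Members, lists and comparisons were chosen with earlier results of these data known. Positions and promoters are RefSeq, GRCh38.p14; overlaps are from GENCODE 29. Alternatives were other pseudocounts, filters, scalings and variance models, limma-voom, a replicate block, other slopes and leaving out libraries.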

Additional observations from a re-analysis of the deposited data

How the results depend on the processing

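Over 1838 recalculated folds of 24 genes, 1752 kept their direction and their side of the threshold, 54 lost a call, 20 gained one and 12 changed sign. The sign changes were all at 10 µg/ml against 0 µg/ml, in folds of ACLY, ELOVL6, ELOVL5 and LPIN1 that were not called: ACLY 0.015 with quantile normalisation, ELOVL6 -0.016 with median centring, -0.025 with TMM scaling and -0.0095 with quantile normalisation, ELOVL5 -0.016 with TMM scaling, ELOVL6 from -0.031 to 0.074 and LPIN1 from -0.043 to 0.019 with 1 library left out, and ELOVL6 -0.031 and LPIN1 0.019 without replicate 3 at 2.5 and at 10 µg/ml, a setting chosen after seeing the data. The cause was not tested.

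Counts of members called moved by over 1.5 times as follows. The 1 member called higher at 100 µg/ml (ELOVL1) became 0 with median centring and with TMM scaling, and 0 to 1 with 1 library left out. The 1 member called lower from 10 to 50 µg/ml became 0 with only these doses in the fit, 2 with limma-voom, 3 without replicate 3 at 2.5 and 10 µg/ml, and 0 to 2 with 1 library left out. The 2 members sloping up became 1 with median centring, 0 with TMM scaling, 1 with limma-voom, 0 without 100 µg/ml and 1 to 3 with 1 library left out. The 5 sloping down became 3 without 100 µg/ml, where fewer samples enter. The 5 members called over all doses ranged from 3 to 5 with 1 library left out (3 without replicate 3 at 100 µg/ml) and were at most 6. The other pathway genes called lower at 100 µg/ml (7) ranged from 4 to 8 with 1 library left out and were 9 without replicate 3 at 2.5 and 10 µg/ml. The 4 members called lower at 100 µg/ml ranged from 3 to 5 over 31 alternatives, and the 3 at 50 µg/ml from 2 to 4.

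No pairing of the libraries by the replicate numbers in the titles was seen. Deviations from the dose means correlated by -0.33 to 0.24 (median 0.011) between libraries with the same number. Between libraries with other numbers they correlated by -0.24 to 0.25 (median -0.0055), and 3 of 18 libraries correlated best with their own number. These values cannot show whether libraries with the same number were prepared together. With the replicate block 4 members were called lower and 1 higher at 100 µg/ml, and 3 lower at 50 µg/ml. Of the other pathway genes, 8 were then called higher and 6 lower. The median fold of all genes moved by less than 0.1 under each scaling. ACACA, at 10 to 41 reads per library, was under the filter and not tested, and its reads may be incomplete.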

Other observations

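Of the 49 other pathway genes tested, 10 sloped up with dose and 11 down by limma, where 13% and 12.6% of all genes did. Those that sloped without being called at 100 µg/ml are given here; they and ACSS2 were chosen after their values were seen. FADS3, a desaturase relative of FADS2, had a limma slope of -0.031 (adjusted p = 0.00284) and was called lower at 50 µg/ml (fold -0.21, adjusted p = 0.025), with a fold of -0.14 at 100 µg/ml (adjusted p = 0.0984). CYB5A, the cytochrome that passes electrons to desaturases, was likewise lower at 50 µg/ml (fold -0.30, adjusted p = 0.0221) and not called at 100 µg/ml (fold -0.12, adjusted p = 0.34), with a slope of -0.033 (adjusted p = 0.0229). CYB5B had a slope of -0.015 (adjusted p = 0.00832). SCD5 sloped up (0.017, adjusted p = 0.0162) while SCD sloped down, and the elongase ELOVL2 sloped down (-0.030, adjusted p = 0.00791). ACSL1, which activates fatty acids to their CoA esters, sloped up (0.030, adjusted p = 0.002), as did GPAT4, which adds the first acyl chain to glycerol phosphate (0.017, adjusted p = 0.0351).

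COL1A1, the most abundant of the listed pericyte and fibroblast markers, averaged 495.8 FPKM without oxLDL and 356.3 with 100 µg/ml. Its limma fold was -0.48 (adjusted p = 0.000708), and THY1 (fold -0.38) and PDGFRB (fold -0.51) fell too. These were the 3 called lower of 7 tested markers on this list, where 7.51% of all genes were, and 0 were called higher. TAGLN (fold -0.16), COL1A2 (-0.12), ACTA2 (0.012) and CSPG4 (0.067) were not called. CD14, on the microglia list, also fell (fold -0.50, adjusted p = 0.0244).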
